A study of Mus musculus with 23 samples.

Results

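Long-term haematopoietic stem cells (LT-HSC) expressing the V617F form of the kinase JAK2 were compared with wild-type (WT) LT-HSC sorted by the same gate, without a further split by the surface protein CD41. The comparison rests on 6 of the 23 RNA-seq libraries of the series, V617F libraries 6, 7 and 8 and WT libraries 30, 31 and 32, named as in the labels. The V617F mice were transgenic for SclCre and V617F, the others are labelled wild type, and both were C57BL/6 mice given tamoxifen on 5 days and killed 12 weeks after it, with no age stated. SclCre is a Cre recombinase driven from the Scl (Tal1) gene, which is active in blood stem and progenitor cells, and tamoxifen turns it on. The labels do not say how many mice made up a library. The p-values below measure the spread between the libraries in each fit, which may in part be technical. The main fit also held libraries of another population. All 3 V617F libraries are labelled male and all 3 WT libraries female, so sex and genotype cannot be told apart, and results are given for autosomal genes. Of 24454 genes in the deposited table, 14281 passed the expression filter and 13736 of these are autosomal.

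JAK2 is the kinase bound to receptors for erythropoietin and other cytokines. When a receptor is engaged, JAK2 phosphorylates STAT5, which enters the nucleus and turns on feedback inhibitors such as the SOCS proteins and CISH. The V617F change keeps the kinase active without ligand and is the common driver of myeloproliferative neoplasms, in which platelet, red cell and granulocyte output from the stem cell is raised. LT-HSC sit at the top of this output and are normally quiescent.

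The 2 groups of libraries differed in technical measures before any gene was compared. V617F libraries held 17.6 to 22 M counts with 15547 ± 217 genes detected (SD, n = 3), and WT libraries 34.6 to 49.2 M counts with 13365 ± 466 genes (n = 3), so fewer genes were detected in the deeper group. WT 30 stood apart from the other WT libraries. Its levels correlated with theirs at a Spearman correlation of 0.801 and 0.805 across genes, while WT 31 and WT 32 correlated at 0.909 with each other and at 0.89 to 0.931 with the V617F libraries. Genes shorter than 1000 bases took 16.5% of its counts, against 6.08% to 9.57% in the other 5 libraries, and its 10 most abundant genes took 8.55%. Some results that rest on WT 30 are therefore also given without it. A gene given only with all 3 WT libraries may still rest on WT 30.

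Markers of the gate were present in both genotypes. Levels are given as CPM, counts scaled to a common library total. Slamf1, which encodes the sort marker CD150, stood at 67.3, 60.3 and 57.3 CPM in V617F libraries 6, 7 and 8 and at 21.9, 23.4 and 42.7 in WT libraries 30, 31 and 32. Kit, the stem cell factor receptor, stood at 539, 567 and 1037 CPM in V617F and at 153, 1037 and 930 in WT, WT 30 being the low value. Ly6a, which encodes Sca-1, ran the other way, with 525 CPM in WT 30 against 70.7 and 178.8 in the other WT libraries and 148, 240.1 and 136 in V617F. Among stem cell transcription factor and receptor genes, Mecom stood at 12.4 CPM in WT 30 and between 38.3 and 209 in the other 5 libraries, and Tek at 5.98 against 29 to 183. Of the genes that the gate excludes, Cd3e and Cd8a had no counts in any LT-HSC library and Cd48 stood at 2.69 to 15.7 CPM over the 6 libraries.

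Few genes passed the test for a genotype difference. With edgeR's quasi-likelihood test and a Benjamini-Hochberg adjusted p under 0.05 over all genes, 8 autosomal genes were called, 0.0582% of those tested, and 9 with the sex chromosomes (0.063%). Rac1, Lamp1, Zfand5 and Ltbp1 rose in V617F (0.0291%) and Ccnd1, Cd74, Pdlim7 and Car1 fell (0.0291%). An unadjusted p under 0.05 was reached by 1718 genes (12.5%), 1013 with a higher level in V617F (7.37%) and 705 with a lower one (5.13%). The number called moved with the libraries in the fit, which borrows the spread of the megakaryocyte progenitor (MkP) libraries made by the same protocol. It was 0 with only the 6 LT-HSC libraries in the fit. It was also 0 without WT 32, without V617F 6, 7 or 8, or without MkP V617F 1 or 2. It was 2 without MkP V617F 3, 5, 21 and 4 without MkP WT 30, 31 and 32, 14 without WT 30 and 22 without WT 31. Of the 8 genes, 7 were among the 14 without WT 30, where Car1 had an adjusted p of 0.0518. Over the 12 omissions of 1 library from the fit, Rac1 passed in 6, Ccnd1, Ltbp1 and Zfand5 in 5, Lamp1, Car1 and Cd74 in 3 and Pdlim7 in 2, with the same direction in each. DESeq2 called 491 genes and limma-voom 307, and both sets held all 8. Sample-weighted voom, chosen after seeing the data, called 10 (4 higher, 6 lower), among them 6 of the 8. Ltbp1 (adjusted p = 0.145) and Zfand5 (0.132) did not pass there.

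**Figure D1:**
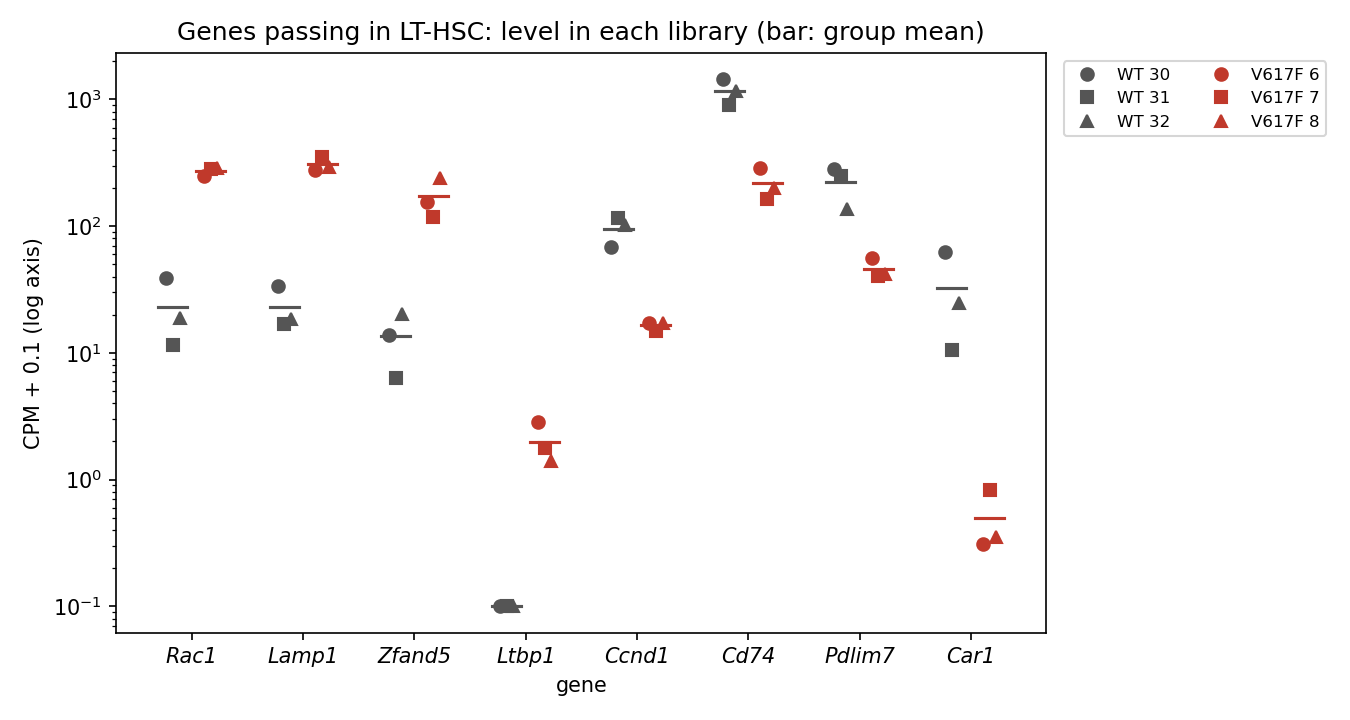
Level of each of the 8 called genes in each LT-HSC library, as CPM plus 0.1 on a log axis. Points are libraries, grey for WT and red for V617F, and bars are group means. The groups do not overlap for any of the 8 genes, Rac1 running from 247 to 287 CPM in V617F and from 11.4 to 39.2 in WT.

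Rac1 (Entrez 19353, chromosome 5), a small GTPase that controls actin, adhesion and stem cell retention in marrow, stood at 247, 284 and 287 CPM in V617F and at 39.2, 11.4 and 18.7 CPM in WT. The V617F libraries were alike and each WT library lay far below them. The mean was 11.8-fold higher, 272.5 ± 22.2 against 23.1 ± 14.4 CPM (log2 3.56, SE 0.43, adjusted p = 0.0164).

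Lamp1 (Entrez 16783, chromosome 8), a main membrane protein of the lysosome, followed the same pattern. Its level was 276, 353 and 293 CPM in V617F and 33.8, 16.7 and 18.5 in WT, a 13.4-fold higher mean (log2 3.74, SE 0.55, adjusted p = 0.0376). Zfand5 (Entrez 22682, chromosome 19), a zinc finger protein that stimulates the proteasome, stood at 156, 119 and 241 CPM against 13.8, 6.23 and 20.2, 12.8-fold higher (log2 3.68, SE 0.49, adjusted p = 0.0202). In all 3 genes the lowest V617F library was several times the highest WT library.

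Ltbp1 (Entrez 268977, chromosome 17) encodes a matrix protein that binds latent TGF-beta, a signal that holds stem cells quiescent. It was a weakly expressed gene, at 2.74, 1.66 and 1.29 CPM in V617F, with no counts in any of the 3 WT libraries. Set against a floor of 3 counts per WT library, the V617F mean of 1.9 ± 0.75 CPM was at least 21.3-fold higher (adjusted p = 0.0202). It belongs to a large set: 480 of the tested autosomal genes had no counts in all 3 WT libraries and 26 none in all 3 V617F libraries.

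Ccnd1 (Entrez 12443, chromosome 7), cyclin D1, which with its partner kinases drives entry into the cell cycle, fell. It stood at 17.2, 14.9 and 17.2 CPM in V617F and at 67.9, 116 and 102 in WT, a 5.81-fold lower mean (log2 -2.54, SE 0.35, adjusted p = 0.0233). The 3 V617F libraries were nearly alike, and each WT library lay far above them. In MkP it stood at 68.9 ± 10.9 CPM in WT and 30 ± 1.55 in V617F (log2 -1.20, adjusted p = 0.0873).

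Cd74 (Entrez 16149, chromosome 18), the invariant chain that escorts MHC class II molecules and also acts as a receptor for the cytokine MIF, stood at 290.1, 164 and 199 CPM in V617F and at 1442, 902 and 1166 in WT. Its mean was 5.38-fold lower (log2 -2.43, SE 0.37, adjusted p = 0.0376). Pdlim7 (Entrez 67399, chromosome 13), a PDZ and LIM domain protein of the actin cytoskeleton, fell from 281, 248 and 136 CPM in WT to 56.4, 40.1 and 41.5 in V617F (log2 -2.27, SE 0.34, adjusted p = 0.0376).

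Car1 (Entrez 12346, chromosome 3), the carbonic anhydrase of early erythroid cells, had the largest fall of the 4. It stood at 62.7, 10.5 and 24.6 CPM in WT and at 0.207, 0.727 and 0.25 in V617F, an 82.6-fold lower mean (log2 -6.38, SE 0.98, adjusted p = 0.0376). WT 30 held the highest WT level, and the log2 difference was -5.49 without it.

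The direction of the genotype difference ran with the level of a gene. Among tested autosomal genes with a mean under 1 CPM the median log2 difference was 1.64, with V617F above WT in every library pair for 34.1% of genes and below it for 0.987%. At 100 CPM or more the median was -0.44, with 3.38% of genes above and 10.5% below. Over all 13736 genes the median was -0.06, 13.5% had all V617F libraries above all WT libraries and 5.74% had them below. Restricted to the 9328 genes with a mean of at least 10 CPM, 832 (8.92%) were above and 645 (6.91%) below. The V617F libraries also had more genes detected, and the part of that difference in these values was not tested.

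**Figure D2:**
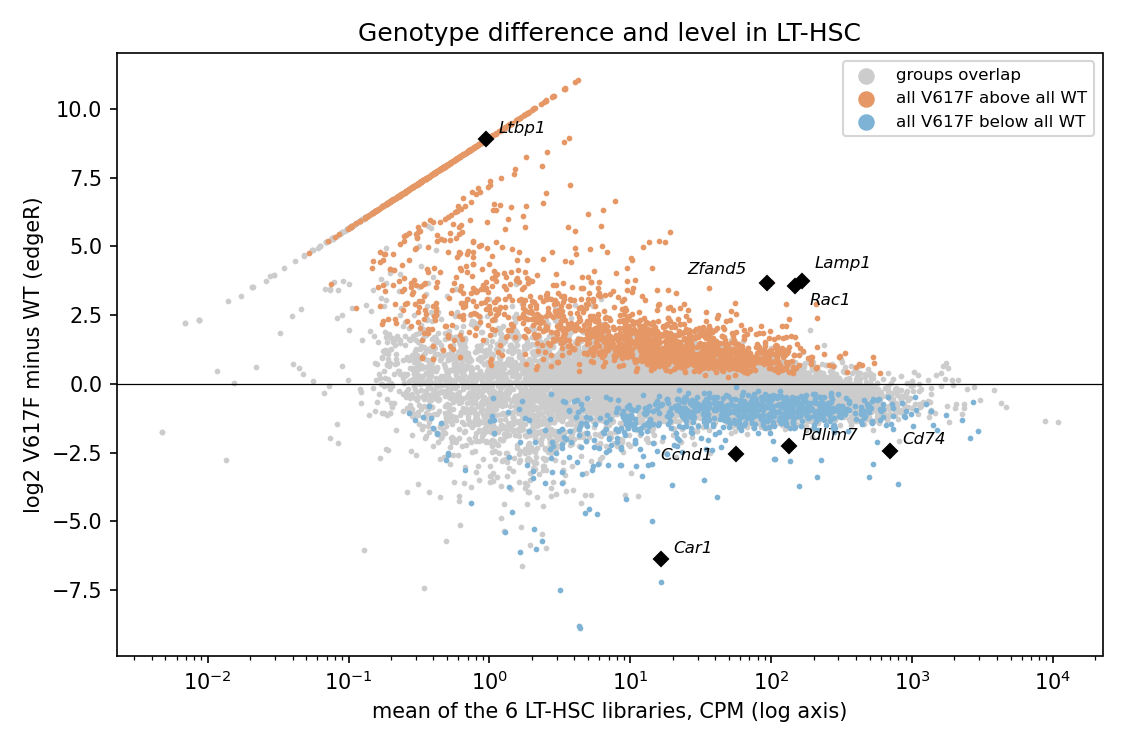
Fitted log2 difference between V617F and WT LT-HSC against the mean level of the 6 libraries, in CPM on a log axis, for each tested autosomal gene. Orange and blue points are genes whose groups do not overlap, and black diamonds are the 8 called genes. The straight upper edge at low levels holds genes with no counts in WT, Ltbp1 among them, and Cd74 lies furthest right of the called genes.

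The difference also ran with gene length. Genes above in V617F had a median length of 4355.5 bases and genes below 2003 bases, among those with a mean of at least 10 CPM, where the median of all was 2848.5. Measured as the difference of mean log2(CPM + 1), the median was -0.34 for genes under 1000 bases and 0.76 for genes of 8000 bases or more, and Spearman's correlation between difference and length was 0.423 across genes. Without WT 30 it was -0.00027, and genes under 1000 bases had a median of 0.29. Genes of 8000 bases or more still had a median of 0.56. The correlation was 0.525 without WT 31 and 0.492 without WT 32. Rac1 has a length of 2269 bases, Lamp1 of 2232 and Zfand5 of 7385, and their log2 differences without WT 30 were 4.19, 4.14 and 3.71.

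**Figure D3:**
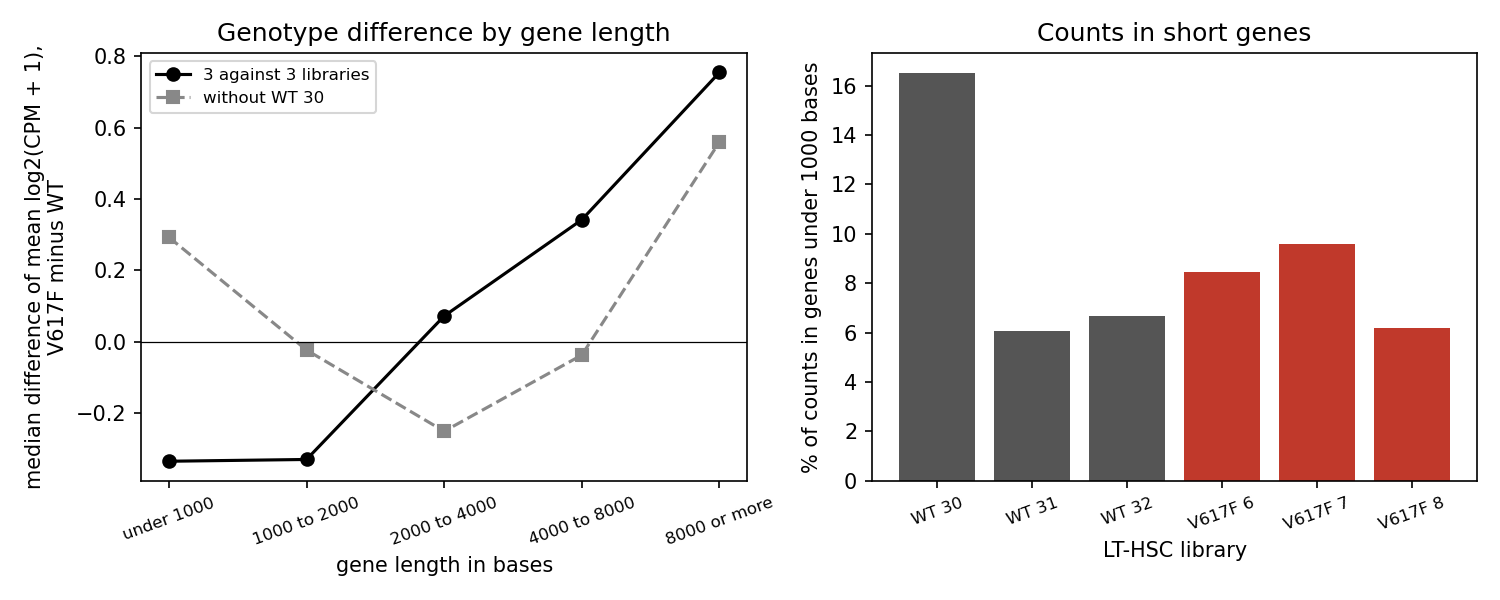
Left, median difference between V617F and WT LT-HSC in mean log2(CPM + 1) for genes in 5 classes of length with a mean of at least 10 CPM, with all libraries (solid) and without WT 30 (dashed). Right, share of the counts of each library in genes under 1000 bases, which is 16.5% in WT 30 and at most 9.57% in the others.

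Of the genes that did not pass, those with the smallest p, at least 10 CPM and separate groups give the next rank of the comparison. On the higher side, Kmt2d, a histone methyltransferase of enhancers, stood at 299.7, 417 and 344 CPM against 66.7, 76.8 and 59.2 in WT (adjusted p = 0.0705). Nucks1, a chromatin protein, stood at 69.5, 77.5 and 120 against 26.1, 18.5 and 28.4 CPM (0.0843). Gp1bb, a subunit of the platelet receptor for von Willebrand factor, stood at 28.1, 32 and 11.1 against 0.122, 1.02 and 1.06 CPM (0.0862). Slc17a8, a glutamate transporter, was nearly absent from WT, with 1.02, 0.425 and 1.07 CPM against 28.5, 34.8 and 29.6 in V617F (0.0862). It did pass in both CD41 fractions of the same gate (log2 3.15, adjusted p = 8.18e-06, and 3.35, adjusted p = 1.76e-05). The others were Nras, a RAS GTPase, Gclm, a subunit of the enzyme that starts glutathione synthesis, Dpysl2 and Fam49b. Their log2 differences lay between 1.71 and 3.7 (adjusted p = 0.0862 to 0.0892). On the lower side 6 of the 8 genes belong to granulocytes or monocytes, Ngp, Camp, Mpo, Elane, Lcn2 and Ly6c2. The other two were Ltb4r1, a leukotriene B4 receptor, at 1.04, 0.208 and 1.38 CPM against 28.4, 21.6 and 32.8 (adjusted p = 0.0862), and Dnajc3, a chaperone of the endoplasmic reticulum.

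The named lists of pathway and cell type genes held 621 tested autosomal genes. Of these 7 passed, the called genes other than Zfand5, where 0.0582% of all genes did. An unadjusted p under 0.05 was reached by 121 (19.5%), 41 higher and 80 lower, where 12.5% of all genes reached it. The lists were chosen with earlier results of these data known, so these shares cannot show that a pathway is enriched. Lists are described below by the members whose groups did not overlap, to be read against the 13.5% above and 5.74% below over all genes, and by their median log2 difference, to be read against -0.06.

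Among JAK kinases and STAT factors Jak2 itself was the 1 of 11 tested genes whose groups did not overlap. It stood at 74.6, 65.6 and 106.5 CPM in V617F and at 23.4, 14.5 and 36.5 in WT (log2 1.73, SE 0.38, adjusted p = 0.149), and passed with DESeq2 (0.0013). The labels do not say whether RNA of the transgene is counted under the mouse gene, so this is no check of the genotype. The list's median was -0.67, with 8 of 11 negative. Jak3, the kinase of lymphoid cytokine receptors, stood at 95.6, 76.3 and 149 CPM in V617F, at 435 and 284 in WT 31 and 32 and at 66.8 in WT 30, the groups overlapping through that library. Without WT 30, 7 of the 11 genes were below WT, where 16.7% of all genes were.

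The receptors that signal through JAK2 were negative in 11 of 15 cases, with a median of -0.66, 1 above and 2 below. Ghr, the growth hormone receptor, stood at 14, 6.24 and 18.3 against 47.5, 36.4 and 26.4 CPM (adjusted p = 0.299), and Csf2ra, the GM-CSF receptor alpha chain, at 28.4, 35.1 and 30.4 against 43.5, 69.1 and 47.2 CPM (0.42). The 1 above was Csf2rb, the GM-CSF receptor beta chain, named because its values were separate. It stood at 35.3, 47.65 and 44.9 against 0.61, 11.5 and 5.15 CPM (adjusted p = 0.514).

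STAT feedback and target genes were mixed, with 4 of 22 above, 2 below and a median of 0.18. Socs2, the feedback inhibitor induced by STAT5, stood at 166.5, 238 and 185 CPM in V617F and at 60.8, 76.1 and 42.5 in WT, 3.29-fold apart with no overlap (log2 1.72, SE 0.40, adjusted p = 0.154), and DESeq2 gave 0.00572. Its relative Cish overlapped, at 82.9, 244.9 and 135 against 49.2, 96.3 and 74.9 CPM (0.911), and so did the survival kinase Pim1, at 9.7, 16.5 and 13.6 against 14, 3.12 and 4 CPM (0.81). Gadd45g, a stress-induced growth inhibitor also listed as a STAT target, stood at 18.7, 13.7 and 9.63 against 100.2, 46.8 and 25 CPM (0.172). Its log2 difference was -2.03, and -1.34 without WT 30.

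Of 30 stem cell identity genes 4 were above and 1 below, the rest overlapping between genotypes, with a median of -0.17. Procr, which encodes EPCR, the protein C receptor that marks LT-HSC, stood at 88.2, 105.8 and 77.9 CPM against 192, 56.9 and 85.5 (log2 -0.30, adjusted p = 0.931). Lyl1, a bHLH factor related to Scl, stood at 208, 249 and 210 against 494, 511 and 312 CPM (adjusted p = 0.177). Vwf, a platelet protein that marks platelet-biased stem cells, overlapped at 87.5, 68.7 and 67.8 against 36.1, 70.5 and 47.6 CPM (0.54). Cd53, a leukocyte tetraspanin from the list of lymphoid priming genes, stood at 74.3, 91.9 and 80.1 against 23.7, 12.2 and 44.7 CPM (0.4).

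Granulocyte genes had the largest share of separate groups among the 30 lists. All 22 had a negative log2 difference, with a median of -2.91, and in 16 (72.7%) all V617F libraries lay below all WT libraries. None passed the adjusted test in edgeR, 15 had an unadjusted p under 0.05, and DESeq2 called 14 and limma-voom 7, each lower. Without WT 30 the median was -2.84 and 19 of 22 were below, where 16.7% of all genes were, so that library was not needed for the pattern. The summed level of the list was 1700, 1030 and 837 CPM in V617F and 8530, 4420 and 5770 CPM in WT.

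Mpo, the peroxidase of primary granules, stood at 172, 39.5 and 50.1 CPM in V617F and at 469, 1300 and 959 in WT (log2 -3.38, SE 0.64, adjusted p = 0.0892). Elane, neutrophil elastase, stood at 50.1, 7.17 and 10.2 against 487, 195 and 193 CPM (0.142). The genes of later granules followed. Ngp stood at 208, 64.5 and 79.5 against 2567, 611 and 1237 CPM (0.0862), Camp, the cathelicidin peptide, at 65.9, 19.7 and 23.5 against 640.5, 148 and 366 (0.0892), and Lcn2, an iron-carrier binding protein, at 10.6, 1.77 and 3.83 against 105, 36.8 and 42.5 (0.144). V617F 6 held the highest V617F level in each of these 5 genes, and still lay below each WT library. The gate excludes lineage-positive cells, the defining neutrophil gene Ly6g stood at 0 to 1.2 CPM in V617F and 2.07 to 21.5 in WT. Itgam, which encodes the myeloid lineage marker CD11b, ran the other way, at 4.02, 5.46 and 5.58 CPM in V617F and 1.59, 0.0566 and 0.776 in WT. Cd4, another marker that the gate excludes, stood at 1.5 to 2.49 CPM in V617F and 0.0199 to 6.43 in WT. The part of other cells in these values was not tested. In bulk samples fewer cells of a type and less RNA per cell cannot be told apart. In the WT CD41-negative fraction of this gate, measured with SMART-Seq v4, Mpo stood at 27.6 ± 41.6 CPM (n = 3) and in WT MkP at 8103 ± 2090 CPM (n = 3). The granulocyte list's median log2 difference was -2.25 in MkP, -1.46 in CD41-negative HSC and 2.3 in CD41-positive HSC, over members tested there. The Mpo difference was -0.19 in CD41-negative HSC (adjusted p = 0.915). In CD41-positive HSC Mpo stood at 0.95 ± 0.247 CPM in WT and 9.41 ± 14.2 in V617F (log2 3.29, adjusted p = 0.518).

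**Figure D4:**
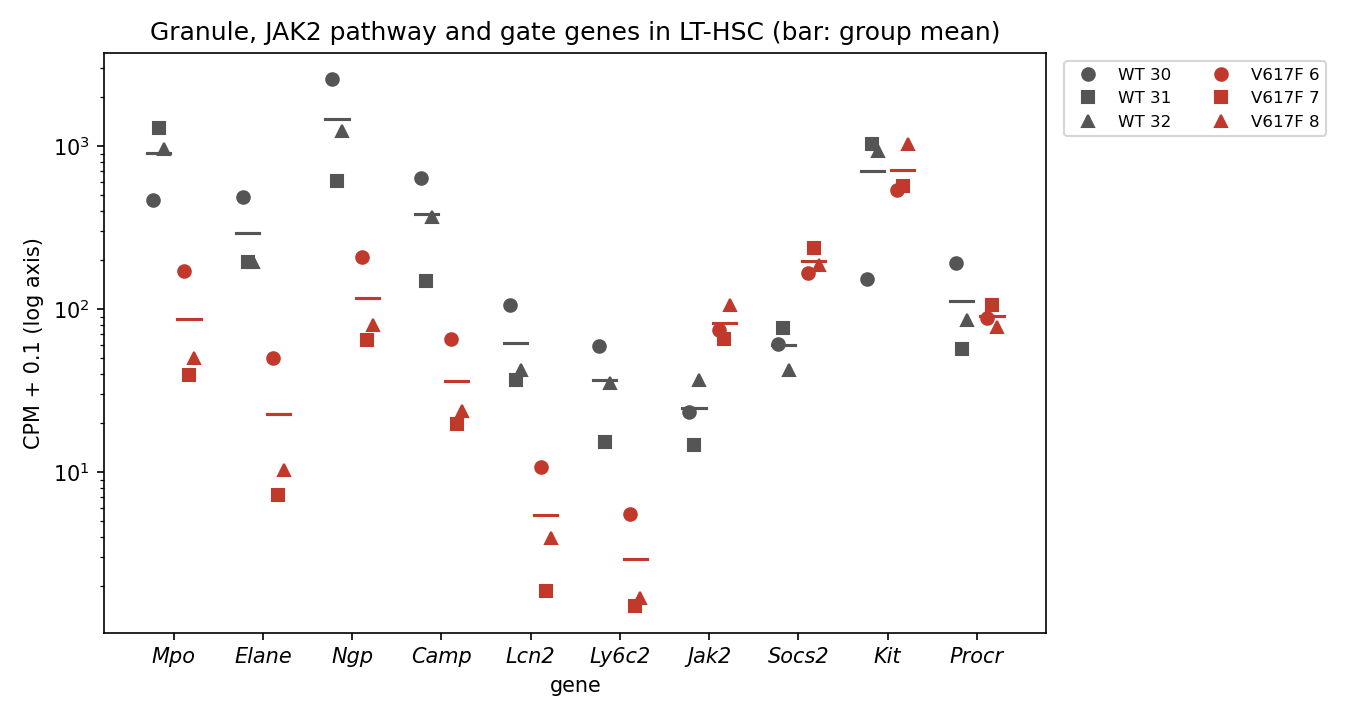
Level in each LT-HSC library, as CPM plus 0.1 on a log axis, of 6 granulocyte and monocyte genes, of Jak2 and Socs2 and of the stem cell genes Kit and Procr. Points are libraries, grey for WT and red for V617F, and bars are group means. The groups are separate for the first 8 genes and overlap for Kit and Procr, where WT 30 is the lowest and the highest library, respectively.

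Of 15 monocyte and macrophage genes 12 were negative, with a median of -1.05, 2 were below and 1 above. Ly6c2, a marker of inflammatory monocytes and granulocyte precursors, stood at 5.47, 1.4 and 1.58 CPM against 59.3, 15.1 and 35.3 (adjusted p = 0.0892). The list summed to 686, 798 and 497 CPM in V617F and to 2290, 533 and 1040 in WT, so the sums overlapped. The summed B and T cell genes overlapped too, at 137, 159 and 86 against 474, 97.7 and 137 CPM, with Cd3e, Cd3g and Pax5 at 0 in all 6 libraries. Mast cell and basophil genes summed to 6.88, 8.21 and 8.38 against 53.1, 5.18 and 14.2 CPM. There Cpa3, a mast cell protease, stood at 4.72, 5.87 and 5.46 against 53, 5.15 and 13.5 CPM (0.29) and Fcer1a, the IgE receptor alpha chain, at 1.74, 1.87 and 2.63 against 0, 0 and 0.696 (0.349). The log2 difference of Cpa3 was -2.16, and -0.79 without WT 30.

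Of 22 erythroid genes 6 (27.3%) were below and 2 (9.09%) above, with a median of -0.73. In the list 15 genes were negative and 7 positive. It summed to 2100 to 3490 CPM in V617F and to 1950 to 7250 in WT, so the sums overlapped. Car1, Klf1 and Rhd are named because they had the smallest p. Next to Car1, Klf1, the master factor of red cell genes, stood at 11.6, 23.4 and 10.3 CPM against 134, 60.7 and 25.9 (adjusted p = 0.16). Rhd, a blood group protein, stood at 0.0829, 0.156 and 0.417 against 87.5, 2.29 and 8.91 CPM (0.153), WT 30 holding most of the WT level. Both had an adjusted p under 0.05 with DESeq2. Without WT 30 the log2 difference of Klf1 was -1.5 against -2.28 with it, and that of Rhd -4.64 against -7.2.

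Of 30 megakaryocyte and platelet genes 3 were above, 1 below and 20 negative. Itgb3, the beta chain of the platelet fibrinogen receptor, stood at 47.4, 43.9 and 127 CPM against 23.2, 16.4 and 13.3 (adjusted p = 0.18). Its alpha chain Itga2b, which encodes CD41, overlapped at 136, 88 and 134 against 31.1, 222.5 and 142 (0.978). Gfi1b, a repressor needed for both platelet and red cell formation, stood at 185, 254 and 130.2 against 573, 426 and 306 CPM (0.172). The list summed to 3360 to 3760 CPM in V617F and 5270 to 6560 CPM in WT.

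MHC class II genes had 4 of 13 below (30.8%), none above and a median of -0.85. Beside Cd74, H2-Ab1 stood at 453, 371 and 254 CPM against 1868, 790 and 670.5 (adjusted p = 0.166) and H2-Eb1 at 69.7, 77.7 and 53.2 against 261, 195 and 158 (0.154). The fourth was Ciita, the transactivator of these genes, named here because its values were separate, with a log2 difference of -1.37. Without WT 30 the same number, 4, was below but the median was 0.04 and 2 were above, so the list as a whole rested on WT 30 while Cd74 did not (log2 -2.23, adjusted p = 0.0481). H2-Ab1 had a log2 difference of -1.63, and -1.01 without WT 30. Interferon response genes had 2 above and 2 below of 38, with a median of -0.42. Without WT 30, 13 of the 38 (34.2%) were below and 3 above, where 16.7% and 21% of all genes were. MHC class I genes overlapped in all 14.

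Of the cell cycle genes Ccnd1 alone passed. Of 19 D and E cyclins, their kinases and inhibitors, 3 were above and 3 below, with a median of -0.005. Ccnd2, another D cyclin, stood at 642, 669 and 519 against 1915, 1029 and 698 CPM (adjusted p = 0.245), and the inhibitor Cdkn2d at 125, 122 and 96.9 against 342, 227 and 136 (0.254). The log2 difference of Ccnd2 was -0.99, and -0.48 without WT 30. Mitosis genes had 3 of 30 above, none below and 19 positive. Mki67, the proliferation marker, stood at 179.6, 120.2 and 186 against 52.9, 79.8 and 113 CPM (0.214), and Nuf2, a kinetochore subunit, at 36.6, 53.4 and 53.5 against 9.4, 28 and 34.7 (0.371). None of the 36 DNA replication genes had separate groups, and their median was -0.32. It was -0.10 without WT 30 and -0.01 without WT 31. Without WT 30, 6 were above and 6 below (16.7% each), where 21% and 16.7% of all genes were.

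Cholesterol synthesis genes were positive in 20 of 22 with a median of 0.56, 3 being above and none below. Msmo1, a demethylase of the pathway, stood at 133, 122 and 93 against 18.6, 34 and 73.9 CPM (adjusted p = 0.244). Sc5d, named because its values were separate, had a log2 difference of 0.54. The median was 0.32 without WT 30. Oxidative phosphorylation genes were negative in 42 of 44, with a median of -0.64, yet in none of them were the groups separate. Uqcrc1, a complex III subunit, stood at 1161, 1170 and 696 against 4930, 1943 and 1067 CPM (0.245) and Ndufs7, a complex I subunit, at 245, 231 and 141 against 944, 335 and 230.6 (0.286). These genes are short, with a median of 917 bases, and without WT 30 their median was 0.15. The log2 difference without WT 30 was -0.56 for Uqcrc1 and -0.44 for Ndufs7, against -1.39 and -1.29 with it.

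Lamp1 was the 1 called member of the lysosome list. Of its 36 genes 2 were above, 4 below and 26 negative, with a median of -0.27, and Ctsa, a lysosomal carboxypeptidase, stood at 307, 361 and 246 CPM against 878, 492 and 432 (adjusted p = 0.23).

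TGF-beta and BMP genes had 6 of 31 above (19.4%) and 1 below, with a median of 0.47, and 0.18 without WT 30. Beside Ltbp1, Skil, a repressor of SMAD activity, stood at 33, 28.3 and 72 CPM against 6.26, 4.81 and 9.51 (adjusted p = 0.154). Nrros, which anchors latent TGF-beta on myeloid cells, was the 1 below, at 431, 417 and 356 against 492, 1199 and 719 CPM (0.255).

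Unfolded protein and stress response genes had 5 of 25 below (20%) and 1 above, with a median of -0.36. Dnajc3 stood at 159, 120.5 and 163 against 492, 367 and 269 CPM (adjusted p = 0.144), Herpud1, a component of protein degradation at the endoplasmic reticulum, at 315, 347 and 260.5 against 519, 680 and 474 (0.23), and Creld2, a folding factor there, overlapped at 103, 105 and 86.4 against 315, 225 and 95.1 (0.299). Without WT 30, 10 of 25 were below, where 16.7% of all genes were. Among immediate early genes, which also respond to handling, 4 of 22 were above and 1 below. Junb stood at 30.9, 243 and 42.1 against 243, 346 and 305 CPM (0.468), V617F 7 lying just below the lowest WT library, and Dusp2, a phosphatase of MAP kinases, at 32.9, 97.9 and 44.5 against 15.2, 11.6 and 14.4 (0.172).

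Of 18 p53 target genes 1 was above and 2 below. Plk2, a polo-like kinase, stood at 5.26, 3.48 and 4.92 CPM against 15.9, 97.8 and 120.3 (adjusted p = 0.246), and Zmat3, an RNA-binding growth suppressor, at 2.78, 1.82 and 4.33 against 0.0407, 0 and 0 (0.236). Endothelial and stromal genes had 2 of 9 above, both near the floor of the WT libraries. Sparc, a matrix protein, stood at 3.23, 18.5 and 3.67 CPM with no counts in WT (0.154), and Alpl, alkaline phosphatase, at 2.36, 1.72 and 2.21 against 0, 0 and 0.0597 (0.172). The summed level of the list overlapped, at 86 to 162 CPM in V617F and 38.1 to 176 in WT, and Cdh5, the endothelial cadherin, did not exceed 0.378 CPM in any LT-HSC library.

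Several list medians moved by over 1.5 times or changed sign without a single WT library. Without WT 31 the median of JAK kinases and STAT factors was -0.27, of their receptors -0.08, of lysosome genes -0.09, of unfolded protein response genes -0.22 and of cholesterol synthesis genes 0.86. Stem cell identity genes had -0.37, -0.05 and 0.13 without WT 30, 31 and 32, and the cyclin list -0.39, -0.05 and 0.33. Without WT 32 the median was -0.24 for the receptors, 0.51 for STAT feedback genes and 0.71 for TGF-beta and BMP genes. Without WT 30, 11 of 36 lysosome genes (30.6%) were below, where 16.7% of all genes were. The granulocyte median stayed between -3.15 and -2.79 over these 3 omissions.

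The same genotype contrast was next set beside that in MkP, committed platelet precursors of the same protocol. The effect differed from that in MkP for 61 autosomal genes (0.444%), being larger, that is more positive, in LT-HSC for 4 (0.0291%) and smaller for 57 (0.415%). Of those 57, 50 had no counts in any WT MkP library. Ltbp1 was among the 4, with no genotype difference called in MkP, where it stood at 33.1 ± 12.7 CPM in WT and 24.1 ± 6.9 in V617F. The 5 smaller effects with the smallest p were in Gnat2, Cdk18, Ly75, P4htm and Tinagl1, each at or near 0 in WT MkP. In LT-HSC these 5 had log2 differences between -1.47 and -0.03, none called. Procr also differed, and WT MkP held 0.0109 ± 0.0189 CPM and V617F MkP 0.651 ± 0.179. The count of 61 ran from 0 without V617F LT-HSC 6, 7 or 8 to 209 without MkP WT 30, and was 176, 112 and 72 without LT-HSC WT 30, 31 and 32. It was 112 and 132 without MkP WT 31 and 32, and 13, 6 and 19 without MkP V617F 1, 2 and 3.

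Rac1 had a log2 difference of 3.56 in LT-HSC and 3.56 in MkP, with an SE of 0.43 in each. In MkP it stood at 29 ± 7.06 CPM in WT and 342 ± 32.4 in V617F. Lamp1 and Zfand5 were called in MkP too, at log2 2.66 and 2.67. Of the 832 genes with V617F above WT in LT-HSC at 10 CPM or more, 372 (44.7%) were also above in MkP, where 16.1% of the same 9328 genes were, and these 372 were 24.8% of the 1502 above in MkP. Of the 645 below, 187 (29%) were also below in MkP, against 13.3% of all. In CD41-negative HSC 184 of the 832 (22.1%) were also above, where 18.6% of all were, and 88 (10.6%) were below. Of the 645, 179 (27.8%) were also below there, where 12.5% of all were. The WT libraries of both populations carry the numbers 30, 31 and 32, so they may come from the same mice, which the labels do not say.

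Rac1 stood at 461 ± 73.2 CPM in WT CD41-negative HSC (n = 3) and at 533 ± 17.6 in WT CD41-positive HSC (n = 2), with genotype differences of 0.05 and 0.00 on the log2 scale, while WT LT-HSC held 23.1 ± 14.4. Lamp1 stood at 306 ± 53.3 and 397 ± 11.3 CPM in the WT fractions and Zfand5 at 287 ± 34.5 and 334 ± 5.45. The fractions were made with SMART-Seq v4 and LT-HSC with v2, so protocol and population cannot be told apart and no level was tested across them. The genotype effects, each within a protocol, were compared. The effect in LT-HSC exceeded the mean effect of the fractions by log2 3.47 for Rac1 (adjusted p = 0.00024), 3.6 for Lamp1 (0.000817) and 3.57 for Zfand5 (0.00024). Protocol drops out of this difference only where it leaves the effect itself unchanged. Here too, then, protocol and population cannot be told apart.

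The 4 genes that fell had negative differences in both fractions. Car1 fell by 5.40 on the log2 scale in CD41-negative and by 4.54 in CD41-positive HSC, and its effect in LT-HSC did not differ from theirs by the test (difference -1.48, adjusted p = 0.482). Cd74 fell by 1.02 and 1.17 (difference -1.37, adjusted p = 0.0541). Ccnd1 fell by 0.99 in CD41-negative HSC and had a difference of -1.14 in CD41-positive HSC that did not pass, and its effect was larger in size in LT-HSC by 1.49 (adjusted p = 0.0359). For Pdlim7 the values were -0.75, which passed, and -0.34, which did not, and the effect was larger in size in LT-HSC by 1.76 (adjusted p = 0.0071).

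**Figure D5:**
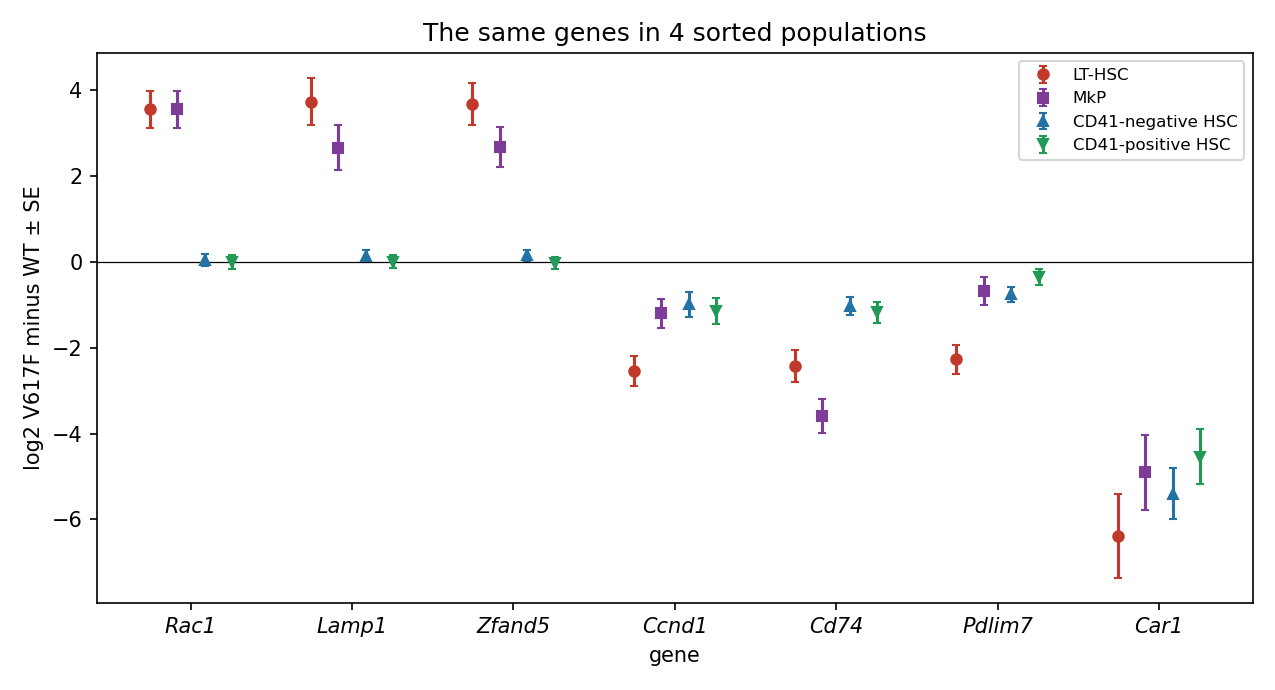
Log2 difference between V617F and WT, with its standard error, for 7 of the 8 genes called in LT-HSC, in LT-HSC, MkP and the CD41-negative and CD41-positive HSC fractions. Ltbp1 is left out because it had no counts in WT LT-HSC. Rac1, Lamp1 and Zfand5 lie above 2.5 in LT-HSC and MkP and near 0 in both fractions, and Car1 lies below -4 in all 4 populations.

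Over all genes the effect in LT-HSC differed from the mean of the fractions for 683 of 14522 autosomal genes (4.7%), 603 more positive (4.15%) and 80 more negative (0.551%). Of the 603, 343 had no counts in any WT LT-HSC library, and the 80 had a median level of 181 CPM in LT-HSC. Among genes with at least 10 CPM the smallest p on the more positive side belonged to Rac1, Zfand5, Lamp1, Kmt2d and Dusp2, and on the more negative side to Dnajc3, Rnf8, a ubiquitin ligase of DNA repair, Pdlim7, Umps, an enzyme of pyrimidine synthesis, and Ltb4r1. Jak2 was also among the 683, with an effect 1.58 larger in LT-HSC (adjusted p = 0.0103), its own differences being 0.12 and 0.10 in the fractions and 1.46 in MkP. Socs2, by contrast, had log2 differences of 2.8 and 2.06 in the fractions and 1.72 in LT-HSC, a difference of -0.74 that did not pass (adjusted p = 0.33). The count was 186 with a filter of 5 CPM, 346 without WT CD41-positive 3, 367 without WT CD41-positive 4, 445 without V617F CD41-negative 3, 426 without V617F LT-HSC 8, and 1640 and 1900 without WT LT-HSC 31 and 32.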

How the data were processed

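The authors sorted marrow cells by the LT-HSC gate (lineage-negative, Kit and Sca-1 positive, CD48-negative, CD150-positive), made libraries with SMART-Seq v2 and Nextera XT per the labels' protocols, and aligned reads to mm10 with STAR 2.5.2a per the submitters' processing notes. The counting tool and its use of strand are not given in the sources used here. They deposited whole-number counts per gene. Chromosomes came from RefSeq gene identifiers.

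The 12 SMART-Seq v2 libraries were fitted together in R 4.3.3 with edgeR 4.0.16 (TMM scaling, default expression filter, 1 mean per group, quasi-likelihood F test, Benjamini-Hochberg over all 14281 genes, threshold 0.05), after a check on simulated data. The CD41 fractions were fitted apart for their own effects, and all 23 libraries together for differences of effects. CPM are per scaled library total. Alternatives were DESeq2 1.42.0, limma-voom (limma 3.58.1), other scaling and filters, a replicate block and the omission of each library. Members and lists were chosen with earlier results of these data known. Named genes are the called genes, the next 8 per direction by p with at least 10 CPM and separate groups, up to 3 members of each of 30 lists by p with at least 1 CPM, 21 set genes and, for each difference of effects, 5 per direction. Values after ± are SDs between libraries, and each SE comes from the fit and includes the spread between libraries. The floor of 3 counts covers counting error only. Some items are not reported here.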

Additional observations from a re-analysis of the deposited data

Results flagged for a closer look

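The results below stand out because the genotype effect in LT-HSC differed from that in another population by edgeR's test of the difference. The difference from MkP was called for 61 genes and that from the CD41 fractions for 683. The fractions also differ from LT-HSC in protocol, so the latter difference cannot be laid to population alone.

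From MkP, with log2 values of the LT-HSC effect minus the MkP effect, Ltbp1 differed by 9.34, Procr by -5.92, Tinagl1 by -7.42, Cdk18 by -10.2, Ly75 by -10.2, P4htm by -11.2 and Gnat2 by -11.9. Each rests on a WT group at or near 0, so its size depends on the prior count of the fit and is no bound.

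From the CD41 fractions, on the more positive side, Sparc differed by 10.5, Ltbp1 by 9.43 and Alpl by 5.66, again with WT LT-HSC at or near 0. Gp1bb differed by 5.32, Lamp1 by 3.6, Zfand5 by 3.57, Rac1 by 3.47, Gclm by 3.2, Dusp2 by 3.06 and Kmt2d by 2.54. Dpysl2 differed by 1.6, Jak2 by 1.58, Nucks1 by 1.57, Nras by 1.48, Fam49b by 1.46 and Vwf by 1.13. On the more negative side Mpo differed by -4.94, Ltb4r1 by -4.28, Cd48 by -2.96, Pdlim7 by -1.76, Umps by -1.6, Dnajc3 by -1.52, Ccnd1 by -1.49, Rnf8 by -1.25 and Herpud1 by -0.95.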

How the results depend on the processing

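The 8 calls in LT-HSC became 10 with sample-weighted voom, 491 with DESeq2 (311 higher, 180 lower), 307 with limma-voom (290 higher, 17 lower) and 0 with a fit of only the 6 LT-HSC libraries, where 1018 genes had an unadjusted p under 0.05. Leaving out 1 library gave 0 to 22. Limma-voom moved the median log2 of all genes from -0.06 to 0.23. The 61 calls of the difference from MkP became 496 with DESeq2 and 0 with sample-weighted voom, an alternative chosen after seeing the data (1173 at an unadjusted p under 0.05), and ranged from 0 to 209 without 1 library. The 683 calls of the difference from the CD41 fractions became 1284 with DESeq2, 186 with a filter of 5 CPM and 4 with sample-weighted voom, and ranged from 346 to 1900 without 1 library. Leaving out 1 library raised these counts in some fits and lowered them in others, and the cause was not tested. RLE size factors, no filter and leaving out X and Y genes kept each count within 1.5 times.

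With the replicate number as a block, limma-voom called 307 genes in LT-HSC, 79 for the difference from MkP and 868 for that from the CD41 fractions, against 307, 82 and 868 without it. Equal numbers occur in WT LT-HSC and WT MkP but not in V617F and WT LT-HSC, and the consensus correlation within a number was -0.0289, so no pairing was seen.

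The named genes that changed sign were Kit, Cdk18, Itga2b, Ly6a, Procr and P4htm, each far from the threshold. Kit (0.02) stood at -0.0101 with DESeq2 and -0.0101 with RLE size factors, at -0.44 with sample-weighted voom and between -0.44 and 0.40 without 1 library. Cdk18 (-0.03) stood at 0.0572 with limma-voom and 0.057 with the block and at 0.23 with sample weights, and ranged from -0.29 to 0.15 without 1 library. Itga2b (-0.14) stood at 0.16 with limma-voom and 0.17 with the block and ranged from -0.59 to 0.46. Ly6a, Procr and P4htm stood at 0.22, 0.19 and 0.0406 with sample weights, and without 1 library Ly6a ranged from -1.01 to 0.49 and Procr from -0.61 to 0.36, the positive ends being without WT 30.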
